A study of Mus musculus with 16 samples.

Results

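The genes described are 9 surface markers of T and B lymphocytes, Cd3d, Cd3e, Cd3g, Cd4, Cd8a, Cd79a, Cd79b, Ms4a1 and Cr2, chosen by symbol among the 46206 distinct gene symbols of an RNA-sequencing table of mouse fat. For each symbol the entry with the highest mean value was used, and each of the 9 had 1 entry. The table held 16 libraries from male C57BL66/J mice made obese by feeding a high-fat diet, 4 from each of 4 depots: thigh adipose tissue (tAT), brown adipose tissue (BAT), epididymal white fat (eWAT) and inguinal white fat (iWAT). All groups share the strain, the sex and the diet, so no lean animal stands beside them, and no source used here gives ages or time on the diet. Libraries are called by depot and number, as in their titles. Nothing in the labels ties a library to its own mouse, so the p-values stand for the spread among these libraries alone, and that spread may be technical. Tissue was extracted whole, so fewer lymphocytes and less RNA per lymphocyte cannot be told apart in any value given here.

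T cells recognise antigen through the T cell receptor, whose signal is carried into the cell by the CD3 chains; Cd3d, Cd3e and Cd3g encode the delta, epsilon and gamma chains. CD4 and CD8 are the co-receptors that bind class II and class I major histocompatibility molecules on the partner cell, and they divide T cells into helper and cytotoxic lineages. Some dendritic cells of the mouse also carry CD4 or CD8 alpha. B cells recognise antigen through membrane immunoglobulin, which signals through the CD79A and CD79B chains. Ms4a1 encodes CD20 of mature B cells, and Cr2 encodes the complement receptor CD21, carried by B cells and by follicular dendritic cells. Both lymphocyte classes are known to enter epididymal fat of obese mice. The inguinal fat pad of the mouse encloses a lymph node, and the labels do not say whether it was cut out.

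The 9 genes lie on 6 chromosomes of mm10 (GENCODE vM21 positions). Cd3g (chr9:44969572-44980431, minus strand), Cd3d (chr9:44981786-44987339, plus strand) and Cd3e (chr9:44998740-45009627, minus strand) span 40056 bases in all, and the start sites of Cd3g and Cd3d lie 1355 bases apart in opposite directions. Cd8a (chr6:71373427-71379173, plus strand) and Cd4 (chr6:124864692-124888221, minus strand) share a chromosome at a distance. Cd79a lies at chr7:24897381-24902197 (plus strand), Cd79b at chr11:106311341-106314762 (minus strand), Ms4a1 at chr19:11249675-11266241 (minus strand) and Cr2 at chr1:195136811-195176716 (minus strand). Cd3e overlaps the antisense gene Gm48719 and Ms4a1 the antisense gene 4930526L06Rik, and no source used here says if strand was used in counting, so the values of both genes are uncertain to that extent.

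Promoter windows of 300 bases, from 250 bases before to 50 after the start site, were taken from RefSeq (GRCm38.p6), which gave 1 for 6 of the 9 genes. The 3 windows of the clustered CD3 genes are shown because these chains are used together in 1 receptor, and that of Cd79a because it is the B cell counterpart. They are written 5′ to 3′ on the gene's strand, with capitals for matches on either strand to the ETS core AGGAAG and to the E-box CAGNTG. The windows are chr9:44981536-44981835 (Cd3d), chr9:45009562-45009861 (Cd3e), chr9:44980382-44980681 (Cd3g) and chr7:24897247-24897546 (Cd79a).
Cd3d: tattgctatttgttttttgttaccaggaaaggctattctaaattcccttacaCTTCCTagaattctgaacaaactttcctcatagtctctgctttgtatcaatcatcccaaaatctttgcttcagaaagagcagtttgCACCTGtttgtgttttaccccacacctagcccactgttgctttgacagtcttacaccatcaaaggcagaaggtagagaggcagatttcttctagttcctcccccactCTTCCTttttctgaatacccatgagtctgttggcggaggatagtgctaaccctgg
Cd3e: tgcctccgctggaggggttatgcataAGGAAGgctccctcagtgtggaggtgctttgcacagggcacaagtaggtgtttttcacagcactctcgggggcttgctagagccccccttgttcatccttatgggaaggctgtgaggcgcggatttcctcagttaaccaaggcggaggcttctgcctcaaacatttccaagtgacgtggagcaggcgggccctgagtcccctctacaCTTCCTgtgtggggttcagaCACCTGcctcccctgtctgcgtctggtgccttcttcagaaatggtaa
Cd3g: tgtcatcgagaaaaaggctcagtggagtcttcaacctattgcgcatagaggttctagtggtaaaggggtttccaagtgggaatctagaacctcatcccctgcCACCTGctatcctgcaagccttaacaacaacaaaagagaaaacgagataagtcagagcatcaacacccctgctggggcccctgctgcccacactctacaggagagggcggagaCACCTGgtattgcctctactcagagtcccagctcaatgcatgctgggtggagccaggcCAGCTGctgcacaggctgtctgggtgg
Cd79a: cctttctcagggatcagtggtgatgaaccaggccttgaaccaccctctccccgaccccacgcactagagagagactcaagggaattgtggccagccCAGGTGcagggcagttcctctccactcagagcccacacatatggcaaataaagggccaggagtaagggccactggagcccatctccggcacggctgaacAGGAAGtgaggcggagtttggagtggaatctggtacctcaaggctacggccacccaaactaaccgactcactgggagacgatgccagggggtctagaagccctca

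The ETS core occurred 2 times each in the Cd3d and Cd3e windows, 1 time in that of Cd79a and 0 times in that of Cd3g, and it is found in 35.4% of 32851 RefSeq windows of this length. The Cd3g window instead held 3 E-box matches, and each of the 6 windows held at least 1, against 51.4% of all windows. The RUNX core TGTGGT (16.8% of windows), the palindromic EBF motif (0.904%) and the octamer ATGCAAAT (1.74%) were in 0 of the 6. These are matches of letters in these windows only.

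The values are the authors' deposited FPKM, in which fragments are divided by the length of the gene and the mapped depth. Sequencing depth is unknown, and the sums of FPKM per library ran between 818815 (BAT 4) and 1074120 (tAT 3). The members were low: outside iWAT 3 the highest value of any member was 7.99 FPKM (Cd3g in eWAT 1). At the filter used for testing, at least 1 FPKM in at least 4 libraries, 4 members passed (Cd3g, Cd4, Cd79a and Cd79b) and 5 did not (Cd3d, Cd3e, Cd8a, Ms4a1 and Cr2). Those 5 were tested only in fits with no filter. The brown adipocyte genes Ucp1, Cidea, Cox8b, Ppara and Zic1 summed to 902 to 2619 FPKM in tAT, 10869 to 14314 FPKM in BAT, 31.0 to 63.0 FPKM in eWAT and 108 to 195 FPKM in iWAT. Markers of other tissue moved between libraries: skeletal muscle genes summed to between 1763 and 19565 FPKM in tAT 1, 2 and 4 and BAT 3 and 4, called muscle-rich here, and to 113 FPKM in tAT 3, and the epididymis gene Crisp1 stood at 367 FPKM in eWAT 3 against at most 0.223 FPKM elsewhere. The other listed epididymis genes, Lcn8, Spag11a and Adam28, were at 0 FPKM in eWAT 3. The part of the muscle and epididymis genes in the results was not tested.

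**Figure D1:**
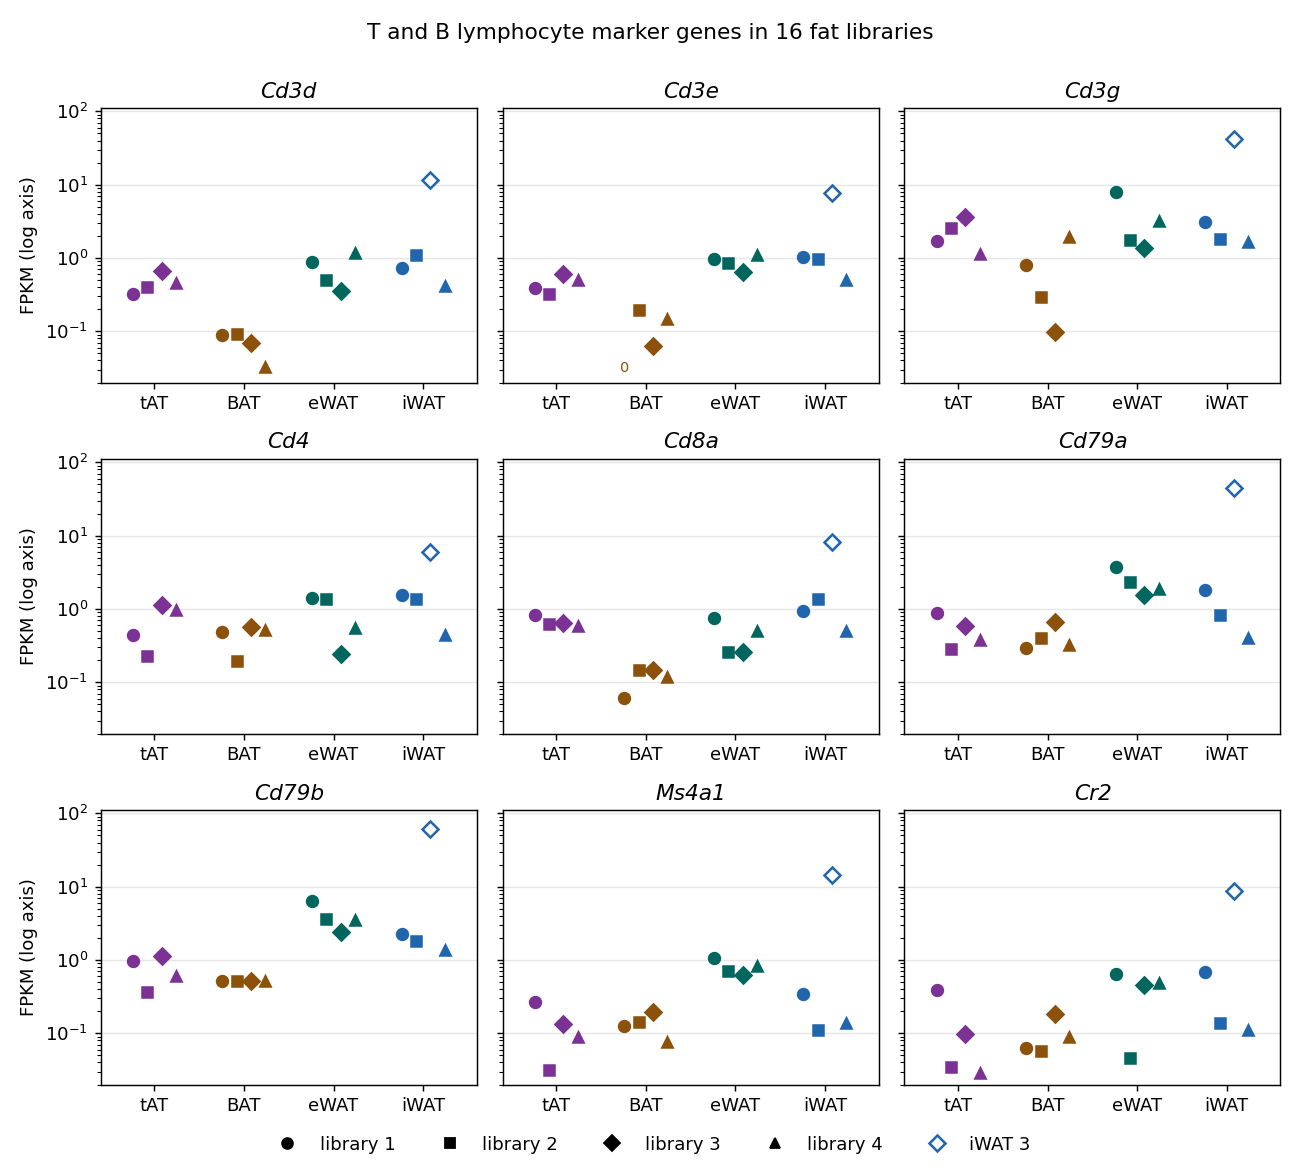
FPKM of each of the 9 genes (log axis) in the 16 libraries, by depot, with 1 point a library and the library number as the symbol; the open diamond is iWAT 3, and Cd3e in BAT 1 is listed at 0. In every panel iWAT 3 is the highest point, for example 60.4 FPKM for Cd79b and 14.6 FPKM for Ms4a1.

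Library iWAT 3 stood apart from the other inguinal libraries, and it did so for all 9 members. It was the highest of the 16 libraries for 9 of 9 members, where it was the highest for 9.75% of the 14991 tested genes. The members were chosen with earlier results of these data known, and 5 of them lie below the filter of the tested genes. The 2 shares are thus not of like genes and are a description only. The B cell genes had the largest ratios: Ms4a1 was at 14.6 FPKM in iWAT 3, against 0.341, 0.113 and 0.140 FPKM in iWAT 1, 2 and 4, a value 104 times their median. Cr2 was at 8.69 FPKM in iWAT 3, against 0.678, 0.139 and 0.110 FPKM, which is 62.7 times the median. No test was made of 1 library against 3.

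The remaining members showed the same order with smaller ratios. Cd79a was at 45.4 FPKM in iWAT 3 against a median of 0.835 FPKM in the other inguinal libraries (54.3 times), and Cd79b at 60.4 against 1.80 FPKM (33.6 times). Cd3g was at 42.1 against 1.79 FPKM (23.5 times), and Cd3d at 11.6 against 0.719 FPKM (16.1 times). Among the T cell genes the co-receptors and Cd3e had the smallest ratios. Cd8a was at 8.30 against 0.941 FPKM (8.82 times), Cd3e at 7.63 against 0.978 FPKM (7.80 times), and Cd4 at 5.996 against 1.38 FPKM (4.35 times).

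The same library was high for genes of lymph node tissue. Of the 9 listed lymph node stroma and homing genes, iWAT 3 was the highest of 16 libraries for 9, and their summed level was 212 FPKM in iWAT 3 against 7.80 to 9.61 FPKM in the other inguinal libraries. Glycam1, a ligand for L-selectin made by the high endothelial venules of lymph nodes, was at 15.5 FPKM in iWAT 3 and at most 0.0879 FPKM in any other library. Cxcl13, the chemokine that draws B cells into follicles, was at 21.4 FPKM in iWAT 3 against a median of 2.01 FPKM in iWAT 1, 2 and 4. Ccl21a, the chemokine of the T cell zone, was at 75.7 FPKM in iWAT 3 against 2.18 FPKM, but it also reached 64.4 FPKM in eWAT 1. The summed level of that list was 47.1 to 86.7 FPKM in eWAT, 3.47 to 6.02 FPKM in tAT and 1.12 to 3.65 FPKM in BAT, while Glycam1 was at most 0.0805 FPKM in eWAT. Most of the eWAT sum was Ccl21a, at 64.4, 48.9, 43.0 and 29.0 FPKM in eWAT 1, 2, 3 and 4.

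Other T and B cell genes were high in iWAT 3 as well, while macrophage and adipocyte genes were near their level in the other inguinal libraries. iWAT 3 was the highest library for 14 of 15 T cell receptor and surface genes (median ratio to the other inguinal libraries 5.79) and for 11 of 14 B cell receptor and surface genes (median ratio 15.7). It was the highest for 3 of 7 plasma cell genes (median ratio 1.17), 5 of 8 natural killer and cytotoxic genes (1.51), 0 of 9 macrophage genes (0.892) and 0 of 5 adipocyte genes (0.902). Over all 14991 tested genes the median ratio was 0.999. Lists of B cell genes held exceptions: Ighm, the heavy chain of IgM, was at 620 FPKM in iWAT 3 against 542, 774 and 692 FPKM in iWAT 1, 2 and 4.

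**Figure D2:**
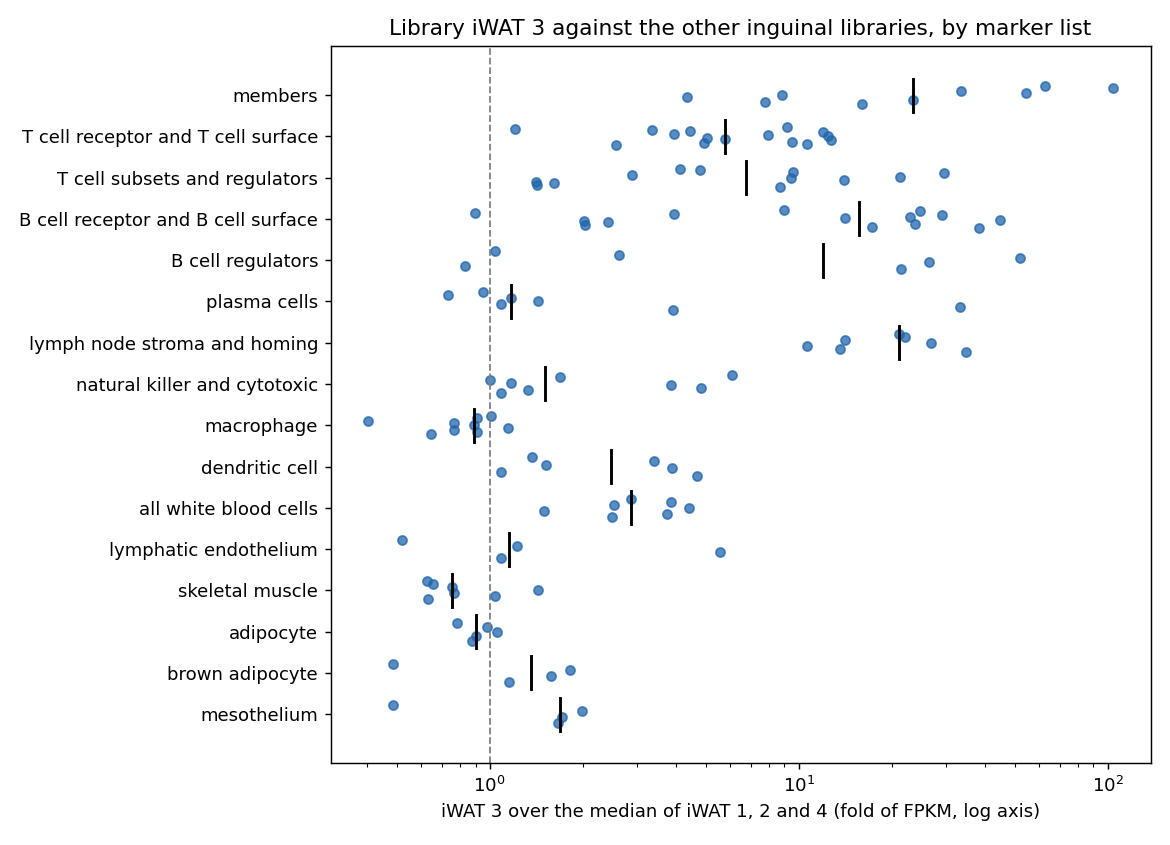
Ratio of the FPKM in iWAT 3 to the median of iWAT 1, 2 and 4 (log axis) for each gene of the members and of 15 marker lists, with 1 point a gene, the list median as a bar and equality as the dashed line; genes with a median of 0 have no ratio and are not drawn, and the epididymis list is left out. The members (median 23.5) and the lymph node list (median 21.1) lie to the right, and the macrophage and adipocyte lists lie around 1.

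IgM and the B cell receptor chains did not keep to 1 ratio across depots. The level of Ighm was 180 to 836 times that of Cd79a in tAT, 16.1 to 47.4 times in BAT, 280 to 545 times in eWAT and 295 to 1746 times in iWAT 1, 2 and 4. In iWAT 3 it was 13.7 times. Ighd, the heavy chain of IgD carried by mature B cells, kept closer to Cd79a: its level was 1.31 times that of Cd79a in iWAT 3 and 0.381 to 4.25 times over all other libraries. Strand use is unknown and immunoglobulin genes have many near copies, so these levels are uncertain to that extent.

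With all 16 libraries in the fit, differences were computed with limma on log2(FPKM + 1), a scale on which changes of low genes look smaller than they are, and p-values were adjusted by the Benjamini-Hochberg method over all genes tested. Between BAT and iWAT, 3 of the 4 members that passed the filter were lower in BAT at an adjusted p under 0.05, where 61.5% of all tested genes were: Cd3g by a difference of -1.86 (SE 0.767, adjusted p = 0.0416), Cd4 by -0.96 (SE 0.372, adjusted p = 0.0292) and Cd79b by -2.00 (SE 0.789, adjusted p = 0.0351). The share of members is near that background, and the calls of Cd3g and Cd4 were lost when the filter was dropped (adjusted p = 0.0555 and 0.0534). With median-of-ratios scaling all 3 calls were lost (adjusted p = 0.098 for Cd3g, 0.103 for Cd4 and 0.075 for Cd79b). In the other 5 contrasts 0 of 4 members passed in limma. The shares of all tested genes that passed there in either direction were 69.8% for tAT against BAT, 57.7% for tAT against eWAT, 39.9% for tAT against iWAT, 74.2% for BAT against eWAT and 14.0% for eWAT against iWAT. At an unadjusted p under 0.05, 1 member passed in tAT against iWAT and 0 in each of the other 4.

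For the 5 members below the filter, the fit of all 16 libraries with no filter called 3 lower in BAT than in iWAT, where 35.7% of 29427 genes were called. These were Cd3d (-1.40, SE 0.493, adjusted p = 0.0313), Cd3e (-1.29, SE 0.384, adjusted p = 0.0126) and Cd8a (-1.34, SE 0.398, adjusted p = 0.0123). Of the 5, 0 passed in the other contrasts by limma, where 38.8% (tAT against BAT), 35.9% (tAT against eWAT), 21.1% (tAT against iWAT), 46.9% (BAT against eWAT) and 8.02% (eWAT against iWAT) of all genes passed in either direction. At an unadjusted p under 0.05, 1 of the 5 passed in tAT against iWAT, 1 in eWAT against iWAT and 0 in the other 3. The SD of Ms4a1 in iWAT was 7.20 FPKM with iWAT 3 and 0.125 FPKM without it, so the differences between depots are described from a fit of the 15 libraries without iWAT 3, with no filter so that all 9 members were tested together, unless another fit is named. That library was left out because of the members' own values, so the p-values of the 15-library fit do not allow for the choice.

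**Figure D3:**
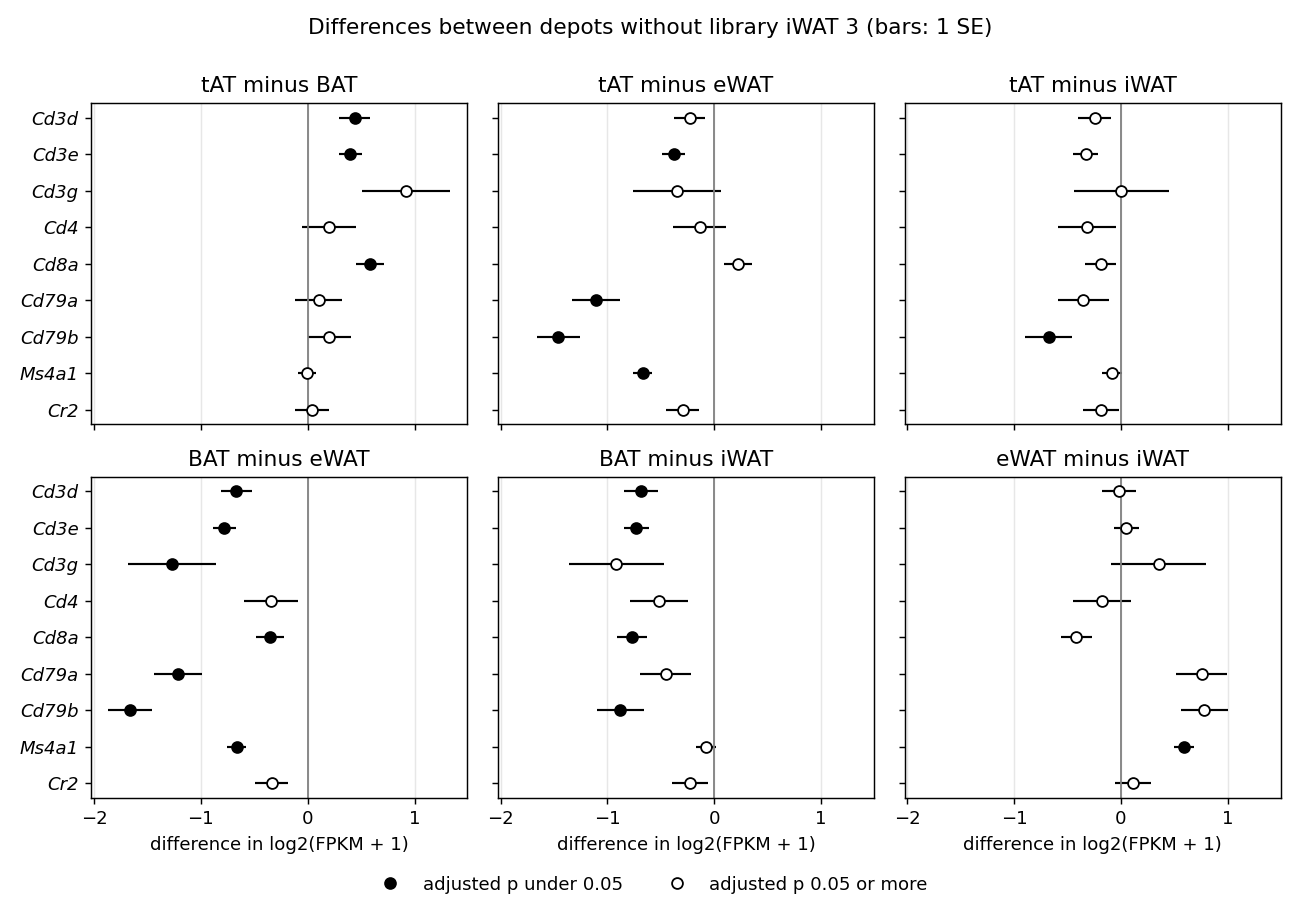
Difference in log2(FPKM + 1) between depots for each of the 9 genes in the fit of 15 libraries without iWAT 3, first-named depot minus second, with bars of 1 SE; filled points have an adjusted p under 0.05. The T cell genes Cd3d, Cd3e and Cd8a are filled in tAT minus BAT. In tAT minus eWAT the B cell genes Cd79a, Cd79b and Ms4a1 are filled, and so is the T cell gene Cd3e. Ms4a1 (0.59) is the filled point in eWAT minus iWAT.

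Thigh fat was above brown fat for the T cell genes Cd3d, Cd3e and Cd8a. Cd3d was at 0.320, 0.400, 0.656 and 0.456 FPKM in tAT, against 0.0901, 0.0909, 0.0704 and 0.0326 FPKM in BAT. Every tAT library lay above every BAT library, and the difference was 0.44 (SE 0.146, adjusted p = 0.0274 by limma). Cd8a was at 0.828, 0.631, 0.651 and 0.581 FPKM in tAT, against 0.0603, 0.145, 0.148 and 0.118 FPKM in BAT. The groups did not overlap, and the difference was 0.58 (SE 0.131, adjusted p = 0.0028). Cd3e was at 0.387, 0.327, 0.596 and 0.502 FPKM in tAT, against 0.192, 0.0639 and 0.148 FPKM in BAT 2, 3 and 4, and it was listed at 0 in BAT 1. These groups did not overlap either (difference 0.40, SE 0.108, adjusted p = 0.009).

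In tAT against BAT 3 of 9 members were thus called higher and 0 lower, where 33.2% of 29223 genes were called higher, so the share of members is that of all genes. The groups did not overlap for the same 3 members, where 51.9% of the 14991 filtered genes were higher in tAT with no overlap, a larger share than that of the members. Here and in the other contrasts 5 of the 9 members lie below that filter, so the overlap shares are not of like genes. No member other than Cd3d, Cd3e and Cd8a passed. Of the T cell genes, Cd3g was at 0.92 (adjusted p = 0.0971; it passed without BAT 4 or eWAT 1) and Cd4 at 0.20 (adjusted p = 0.606). Of the B cell genes, Cd79b was at 0.964, 0.362, 1.14 and 0.612 FPKM in tAT, against 0.509, 0.514, 0.517 and 0.516 FPKM in BAT (difference 0.20, adjusted p = 0.505, with a sign that turned under median-of-ratios and quantile scaling). Many genes were higher in tAT than in BAT on this scale, by a median of 0.08 over all 29223 genes and of 0.44 over the filtered genes with all libraries. With median-of-ratios scaling, 2 members were called higher (15.4% of all genes), Cd3e at 0.32 (adjusted p = 0.0398) and Cd8a at 0.48 (adjusted p = 0.0076), while Cd3d was at 0.38 (adjusted p = 0.0615). With quantile normalization only Cd8a of the 3 stayed called (Cd3d adjusted p = 0.133, Cd3e adjusted p = 0.12). The Cd3d call was also lost without tAT 3, tAT 4, BAT 3 or BAT 4 (adjusted p up to 0.0726). Without the muscle-rich libraries, which leaves 1 tAT and 2 BAT libraries, the differences were 0.60 for Cd3d, 0.55 for Cd3e and 0.58 for Cd8a, as large as before, and did not pass (adjusted p = 0.229, 0.127 and 0.205). Of the 15 further T cell receptor and surface genes, 13 passed as higher in tAT than in BAT and 0 as lower, with a median difference of 0.77, and 10 passed with median-of-ratios scaling. Of the 12 T cell subset and regulator genes, 1 passed as higher and 0 as lower, with a median difference of 0.07. With median-of-ratios scaling 1 of those 12 passed as higher and 2 as lower. Cd247, the zeta chain of the T cell receptor complex, averaged 3.55 ± 0.837 FPKM in tAT and 0.817 ± 0.150 FPKM in BAT (SD, n = 4 each). The rise was not particular to T cell genes: 9 of 9 macrophage genes passed as higher in tAT (median difference 1.83). So did 7 of 7 genes of all white blood cells (1.80) and 7 of 8 natural killer and cytotoxic genes (0.51). Among B cell genes, 5 of 14 further receptor and surface genes (0.14) and 1 of 6 regulators (0.30) passed as higher. In each of these lists 0 genes passed as lower, and their part in the T cell result was not tested.

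Thigh fat was below epididymal fat for the B cell genes Cd79a, Cd79b and Ms4a1. Cd79a was at 0.888, 0.285, 0.586 and 0.378 FPKM in tAT, against 3.69, 2.34, 1.54 and 1.88 FPKM in eWAT. Cd79b, its partner chain, stood at the tAT values given above, against 6.39, 3.64, 2.39 and 3.51 FPKM in eWAT. Ms4a1 was at 0.269, 0.0313, 0.135 and 0.0881 FPKM in tAT, against 1.07, 0.710, 0.615 and 0.822 FPKM in eWAT. All 3 genes had the groups apart, and they fell by 1.11 (SE 0.222, adjusted p = 0.0015), 1.46 (SE 0.204, adjusted p = 9.8e-05) and 0.67 (SE 0.088, adjusted p = 5.8e-05) on the log2 scale in limma.

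In tAT against eWAT 4 of 9 members were called lower, these 3 and Cd3e (-0.38, SE 0.108, adjusted p = 0.0139), where 23.2% of all genes were called lower. The same 4 had no overlap between the groups, where 31.2% of the filtered genes were lower in tAT with no overlap. With median-of-ratios scaling the 4 calls were kept, where 20.2% of all genes were called lower. Without the muscle-rich libraries, where tAT 3 alone stands for tAT and is assumed to vary like the libraries of the other depots, Cd79a was at -1.05 (adjusted p = 0.119), Cd79b at -1.16 (adjusted p = 0.0587), Ms4a1 at -0.66 (adjusted p = 0.0196) and Cd3e at -0.24 (adjusted p = 0.508). The Cd3e call was also lost with quantile normalization (adjusted p = 0.0698) and with a pseudocount of 0.1 (adjusted p = 0.0571). The T cell members other than Cd3e did not pass: Cd8a was at 0.752, 0.261, 0.255 and 0.501 FPKM in eWAT, and its difference, tAT minus eWAT, was 0.23 (SE 0.131, adjusted p = 0.211). Cr2 passed as lower in tAT without eWAT 2 (adjusted p = 0.0316). Of the 14 further B cell receptor and surface genes, 11 passed as lower in tAT and 0 as higher (median difference -0.80). Of the 6 B cell regulators, 2 passed as lower in tAT and 1 as higher. Several genes of the receptor and surface list, such as Btk and Blnk, are also used by macrophages, and the macrophage list moved the same way as that list. All 9 of 9 macrophage genes passed as lower in tAT, and their summed level was 150.4 to 281 FPKM in tAT against 886 to 1752 FPKM in eWAT. Its part in the B cell result was not tested.

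Brown fat was below epididymal fat for most members and below inguinal fat for fewer. Many genes were lower in BAT on this scale. The median difference over all genes of the fit was -0.07 against eWAT and -0.06 against iWAT. Over the filtered genes with all libraries it was -0.52 and -0.54. Against eWAT, 7 of 9 members were called lower in BAT and 0 higher, where 38.0% of all genes were called lower, and 6 of 9 had no overlap between the groups, where 56.0% of the filtered genes had none in that direction. Cd79b fell by 1.66 (SE 0.204, adjusted p = 1.03e-05), Cd79a by 1.21 (SE 0.222, adjusted p = 0.000401) and Ms4a1 by 0.66 (SE 0.088, adjusted p = 2.1e-05) on the log2 scale. Cd3e fell by 0.78 and Cd3d by 0.67, with adjusted p = 3.3e-05 and 0.00156. The 2 members not called were Cd4 (-0.34, adjusted p = 0.299) and Cr2 (-0.34, adjusted p = 0.0955). With median-of-ratios scaling 5 members were called, where 24.2% of all genes were: Cd3g (adjusted p = 0.0879) and Cd8a (adjusted p = 0.118) were lost, as they were with quantile normalization (adjusted p = 0.16 and 0.241). Single libraries also decided those calls: Cd3g was not called without BAT 2, BAT 3 or eWAT 1 (adjusted p up to 0.0658), nor Cd8a without any 1 of the 4 BAT libraries, eWAT 1 or eWAT 4 (up to 0.123), and both calls were lost when the muscle-rich libraries were left out (adjusted p = 0.0559 and 0.177). Cr2 passed without eWAT 2 (-0.47, adjusted p = 0.0146), and just so without iWAT 1.

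Against iWAT, the 4 members called lower in BAT were Cd3d (-0.69, SE 0.157, adjusted p = 0.0026), Cd3e (-0.73, SE 0.117, adjusted p = 0.000143), Cd8a (-0.77, SE 0.142, adjusted p = 0.000471) and Cd79b (-0.88, SE 0.220, adjusted p = 0.0048), where 34.7% of all genes were called lower. These 4 also had no overlap between the groups, where 61.7% of the filtered genes had none in that direction, a larger share than that of the members. Of these 4 only Cd79b passed the filter, so the shares are not of like genes. Without iWAT 4, Cd4 and Cd79a passed as well (adjusted p = 0.0414 and 0.0392), and Cd3g without BAT 4 (adjusted p = 0.0485). Without the muscle-rich libraries Cd3d was at -0.66 (adjusted p = 0.0505). The 4 calls held with median-of-ratios scaling, where 19.1% of all genes were called lower, and that of Cd79b was lost with quantile normalization (-0.45, adjusted p = 0.147). All 15 of the 15 further T cell receptor and surface genes passed as lower in BAT than in eWAT, and likewise than in iWAT. The 12 T cell subset and regulator genes were mixed. In BAT against eWAT 6 of them passed as lower and 2 as higher, and in BAT against iWAT 5 as lower and 2 as higher. Macrophage genes were also lower in BAT, with 9 of 9 called in each of these contrasts and a summed level of 24.9 to 40.6 FPKM in BAT, and their part was not tested.

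With iWAT 3 set aside, Ms4a1 was the member called between epididymal and inguinal fat in the fit with no filter. Ms4a1 was at the eWAT values given above, between 0.615 and 1.07 FPKM, against 0.341, 0.113 and 0.140 FPKM in iWAT 1, 2 and 4, with a difference of 0.59 (SE 0.095, adjusted p = 0.0028). It was the 1 member called higher in eWAT, where 4.35% of all genes were, and it stayed called with median-of-ratios scaling (0.54, adjusted p = 0.0043), where 3.82% of all genes were called higher. It was called in 15 of 15 fits that left out a further library, with adjusted p of at most 0.0191. With iWAT 3 in the fit the sign of the Ms4a1 difference was the opposite, at -0.34 on the log2 scale, and it did not pass. Leaving out iWAT 3 was decided after values of Ms4a1 itself were seen, so the call depends on that choice.

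Cd79b was at 2.39 to 6.39 FPKM in eWAT, against 2.29, 1.80 and 1.35 FPKM in iWAT 1, 2 and 4. The groups did not overlap for Cd79b and Ms4a1, 2 of 9 members, where 16.1% of the filtered genes were higher in eWAT with no overlap. The Cd79b difference of 0.78 (SE 0.220) missed the threshold with no filter (adjusted p = 0.0545), as did that of Cd79a (0.76, SE 0.240, adjusted p = 0.0845). When eWAT 3, the library with the high Crisp1 value, was left out as well, Cd79a (0.88, adjusted p = 0.0432) and Cd79b (0.95, adjusted p = 0.0136) passed too. Cd79a also passed without iWAT 1 (1.03, adjusted p = 0.036), and Cd79b without tAT 2 or tAT 3 (adjusted p just under 0.05 and at 0.0454). The limma fit without iWAT 3 on the filtered genes called Cd79b (adjusted p = 0.0328) but not Cd79a (adjusted p = 0.0528). Ms4a1 was not tested there, so which B cell member is called depends on the filter. The T cell members had differences of both signs, Cd3d -0.02, Cd3e 0.05, Cd3g 0.35 and Cd8a -0.42 (adjusted p = 0.107), and none passed, although Cd8a did without iWAT 4 (-0.59, adjusted p = 0.034). Of the 15 further T cell receptor and surface genes 0 passed in this contrast. Of the 12 T cell subset and regulator genes 1 passed as higher in eWAT and 1 as lower. Among the 14 further B cell receptor and surface genes 3 passed as higher in eWAT and 0 as lower. They were Blk, a B cell kinase, at 0.38 (adjusted p = 0.000649), Blnk at 1.27 (adjusted p = 0.0067) and Cd37 at 1.06 (adjusted p = 0.0302). Among the 6 B cell regulators 1 passed as higher and 1 as lower. Macrophage genes also moved, with 6 of 9 higher in eWAT, and their part was not tested.

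Between tAT and iWAT without iWAT 3, Cd79b was the 1 member called, lower in tAT at -0.68 (SE 0.220, adjusted p = 0.0476), where 13.7% of all genes were called lower. That call was kept in 3 of the 15 fits that left out a further library, those without tAT 3, eWAT 1 or eWAT 3, and the adjusted p reached 0.164 in the others. Cd3e passed as lower in tAT without tAT 3 or iWAT 4 (adjusted p down to 0.0141). Without the muscle-rich libraries the Cd79b difference was -0.38 (adjusted p = 0.663). Cd79b was also the 1 member with no overlap, where 29.9% of the filtered genes had none in that direction. With median-of-ratios scaling 0 of 9 members were called by limma (Cd79b adjusted p = 0.0837), where 9.29% of all genes were called lower, and 2 had an unadjusted p under 0.05.

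The ratio of B to T cell transcripts depended on the B cell chain taken. The level of Cd79b was 6.65, 4.23, 3.69 and 3.20 times that of Cd3e in eWAT, against 2.21, 1.84 and 2.68 times in iWAT 1, 2 and 4, so these groups were apart. In iWAT 3 it was 7.92 times. In tAT it was 2.49, 1.11, 1.91 and 1.22 times, below every eWAT library. With the partner chain the depots overlapped: the level of Cd79a was 0.752 to 2.29 times that of Cd3e in tAT, 1.71 to 3.84 times in eWAT and 0.786 to 1.77 times in iWAT 1, 2 and 4. In BAT 2, 3 and 4 the ratio of Cd79b to Cd3e was 2.67, 8.10 and 3.49, on levels of Cd3e under 0.2 FPKM. These ratios are descriptions, with no test.

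**Figure D4:**
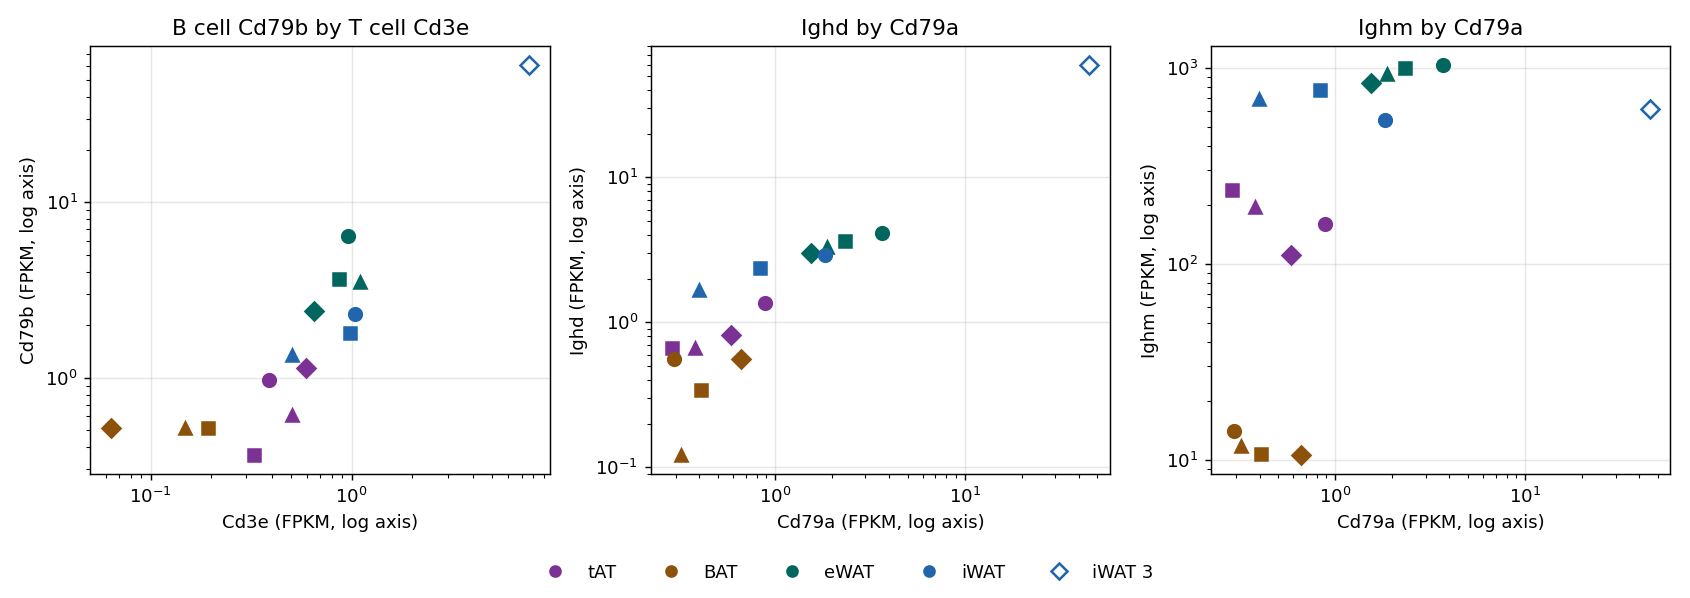
FPKM of Cd79b against Cd3e, of Ighd against Cd79a and of Ighm against Cd79a (log axes), with 1 point a library, the depot as the colour, the library number as the symbol (circle, square, diamond and triangle for 1 to 4) and iWAT 3 as the open diamond; BAT 1 is not drawn in the first panel because Cd3e is listed at 0 there. The open diamond lies far right, at 7.63 FPKM of Cd3e in the first panel and 45.4 FPKM of Cd79a in the others, but its Ighm of 620 FPKM is within the range of the other inguinal libraries.

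Within depots the members did not move as 1 block. The 3 CD3 chains differed: Cd3g was at 7.99 FPKM in eWAT 1 against 1.37 to 3.22 FPKM in the other eWAT libraries, while Cd3d (0.892 FPKM) and Cd3e (0.960 FPKM) in eWAT 1 lay below their levels in eWAT 4 (1.17 and 1.097 FPKM). In BAT 4, Cd3g was at 1.91 FPKM, the highest BAT value, and Cd3d at 0.0326 FPKM, the lowest. The ratio of Cd3g to Cd3e accordingly ran between 1.51 and 12.95 over the libraries with Cd3e above 0. Cd4 was at 0.436, 0.230, 1.14 and 0.962 FPKM in tAT, 0.489, 0.197, 0.567 and 0.509 FPKM in BAT and 1.39, 1.37, 0.240 and 0.544 FPKM in eWAT, so the depots overlapped, and it passed in 0 of 6 contrasts without iWAT 3 in limma (0 also at an unadjusted p under 0.05). Cr2 was at 0.392, 0.0351, 0.0968 and 0.0287 FPKM in tAT, 0.0640, 0.0582, 0.185 and 0.0904 FPKM in BAT and 0.648, 0.0454, 0.453 and 0.483 FPKM in eWAT, and it too passed in 0 of 6 (0 at an unadjusted p under 0.05).

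By mean FPKM without iWAT 3, eWAT was the highest depot for Cd3e, Cd3g, Cd79a, Cd79b, Ms4a1 and Cr2, and the inguinal libraries were the highest for Cd3d, Cd4 and Cd8a. The top depot changed when 1 library was left out for Cd3d, Cd3e, Cd3g and Cr2, and did not for the other 5. Cd3d averaged 0.458 ± 0.144 FPKM in tAT, 0.0710 ± 0.0273 FPKM in BAT, 0.733 ± 0.371 FPKM in eWAT (SD, n = 4 each) and 0.748 ± 0.346 FPKM in iWAT (SD, n = 3). The top 3 depots in that order overlapped, and BAT lay apart. Cd79b averaged 0.768 ± 0.348 FPKM in tAT, 0.514 ± 0.00335 FPKM in BAT, 3.98 ± 1.70 FPKM in eWAT (SD, n = 4 each) and 1.81 ± 0.470 FPKM in iWAT (SD, n = 3). Here tAT and BAT overlapped, and eWAT and iWAT each lay apart from the rest. Cd3g averaged 2.26 ± 1.096 FPKM in tAT, 0.775 ± 0.815 FPKM in BAT, 3.59 ± 3.04 FPKM in eWAT (SD, n = 4 each) and 2.18 ± 0.782 FPKM in iWAT (SD, n = 3), with overlap between every pair of neighbours in order of level. Without eWAT 1 its eWAT mean was 2.12 FPKM, below that of tAT and of iWAT, and without BAT 4 its BAT mean was 0.395 FPKM.

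The genes with the pattern most like each member were sought only among genes that passed the filter, without symbols starting Gm or ending Rik. The measure was the root mean square difference of log2(FPKM + 1), centred on each gene's mean, over all 16 libraries and over the 15 without iWAT 3. Cd3d, Cd3e, Cd8a, Ms4a1 and Cr2 did not pass the filter, so none of them could be found as nearest to another member. Over 16 libraries the nearest gene to Cd79a was Ltb, the lymphotoxin beta of lymphocytes, at 0.21, followed by Cd79b at 0.24, where Cd79a itself varied by 1.24 around its mean. The nearest to Cd3d and to Cd8a was Cd8b1, the other CD8 chain, at 0.19 and 0.16, and the nearest to Ms4a1 was Cd22, a B cell lectin, at 0.23. Over 15 libraries Cd8b1 was still the nearest to Cd8a (0.13, where Cd8a varied by 0.33), and Ltb (0.20) and Cd22 (0.22) the nearest to Cd79a. For the other members the nearest searched genes over 15 libraries included Leo1 and Hspa5 for Cd3e (both 0.12, where Cd3e varied by 0.34). Ing4 was the nearest searched gene to Cd3d (0.15 against 0.33), C3 to Cd79b (0.19 against 0.72) and Chchd5 to Ms4a1 (0.13 against 0.31). Genes below the filter, partner chains among them, may lie closer.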

How the data were processed

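RNA-sequencing of 16 fat libraries was analysed from the FPKM table that the authors deposited. Per the labels' protocols, RNA was taken with Trizol and libraries were built with a TruSeq kit; the submitters' processing notes name TopHat, TopHat2 (2.0.9), Cufflinks (2.1.1) and build mm10. Depth is unknown, so no counting interval was computed, and since FPKM divides by a library total, abundant genes lower the rest.

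Depots and library numbers came from the titles. The 9 members and all marker lists were chosen with earlier results of these data known, and all members are named. For each, the 3 genes nearest in pattern were found among the genes that passed the filter. Values were tested as log2(FPKM + 1) with limma 3.58.1 (R 4.3.3; trend and robust) in 1 fit with a mean per depot, on the 14991 genes that reached 1 FPKM in 4 or more libraries, and in fits with no filter. P-values were adjusted by the Benjamini-Hochberg method over all genes in a fit, with a threshold of 0.05. The fit was tested on simulated data. Alternatives were a pseudocount of 0.1, a filter of 5 FPKM, median-of-ratios and quantile scaling, only the 2 depots compared, a replicate block, and leaving out each library or the muscle-rich ones. The fit of 15 libraries without iWAT 3 and with no filter, its alternatives, and no filter together with other settings were chosen after seeing the data.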

Additional observations from a re-analysis of the deposited data

Results flagged for a closer look

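In 8 of the 36 groups of 4 libraries, 1 library lay farther from the others than Dixon's 95% critical value allows. All 8 were iWAT 3, for every member other than Cd4. They are thus 1 library seen through genes of the same cell types. Such groups are not independent, so their number cannot be set against a chance rate. The values in iWAT 3 were 11.6 FPKM for Cd3d, 7.63 FPKM for Cd3e, 42.1 FPKM for Cd3g and 8.30 FPKM for Cd8a. For the B cell genes they were 45.4 FPKM for Cd79a, 60.4 FPKM for Cd79b, 14.6 FPKM for Ms4a1 and 8.69 FPKM for Cr2.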

How the results depend on the processing

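Values are log2 differences unless they are counts of genes, and the cause of each change was not tested. Without the muscle-rich libraries, which leaves 1 tAT and 2 BAT libraries, fewer genes passed: 5790 against 10466 for tAT against BAT, 4755 against 8645 for tAT against eWAT and 2691 against 5975 for tAT against iWAT. Leaving out 1 library gave 941 (without eWAT 1) to 3038 (without eWAT 3) genes in eWAT against iWAT, against 2099.

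Whether same-numbered libraries share a mouse is not known. Of 24 pairs of same-numbered libraries, 4 had deviations that correlated above 0.1, with a range of -0.27 to 0.23. Of 48 best correlations, 11 were with the own number. This check cannot decide on pairing, since the deviations can also carry the other tissue in single libraries. With the replicate block, 10411, 8646, 6007, 11135, 11160 and 2066 genes passed, against 10466, 8645, 5975, 11119, 11136 and 2099, in the order tAT against BAT, eWAT and iWAT, BAT against eWAT and iWAT, and eWAT against iWAT. The block changed 1 call of a member, that of Cd3g in BAT against iWAT (-1.86, adjusted p = 0.0622).

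With 16 libraries, sign changes were of differences that had not passed. In tAT against BAT, median-of-ratios scaling gave -0.077 for Cd79a, -0.0064 for Cd79b and -0.021 for Cr2. Quantile normalization gave -0.42, -0.32 and -0.066 for these, -0.29 for Cd4, and 0.18 for Cd4 in BAT against eWAT. Without the muscle-rich libraries Ms4a1 was at 0.0022 in tAT against BAT, and Cd3g and Cd4 at 0.22 and 0.23 in tAT against eWAT. A pseudocount of 0.1 gave 0.23 for Ms4a1 in eWAT against iWAT. Leaving out 1 library gave ranges across 0 in tAT against BAT for Cd79a (-0.0020 to 0.18), Ms4a1 (-0.064 to 0.036) and Cr2 (-0.061 to 0.085). It did so in tAT against eWAT for Cd3g (-0.60 to 0.045) and Cd4 (-0.32 to 0.0025), and in tAT against iWAT for Cd3g (-1.34 to 0.0038). In eWAT against iWAT the sign turned without iWAT 3 for Cd3e (-0.79 to 0.047), Cd3g (-0.99 to 0.35), Cd79a (-0.93 to 0.76), Cd79b (-0.79 to 0.78), Ms4a1 (-0.68 to 0.59) and Cr2 (-0.93 to 0.11), and of these Cd79b, among the filtered genes (adjusted p = 0.0328), and Ms4a1 then passed.

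With 15 libraries, Cd79b in tAT against BAT was at -0.0072 with median-of-ratios scaling and -0.15 with quantile normalization, which gave 0.020 for Cd4 in BAT against eWAT. Leaving out a further library gave ranges across 0 in eWAT against iWAT for Cd3d (-0.16 to 0.13), Cd3e (-0.092 to 0.13), Cd3g (-0.041 to 0.60) and Cd4 (-0.44 to 0.0028). Of the 20 calls of members in this fit, 9 were kept under all 19 alternatives, 1 of which has tAT 3 as the lone tAT library with the spread taken from the other depots: Ms4a1 in tAT and BAT against eWAT and in eWAT against iWAT, Cd3d, Cd3e, Cd79a and Cd79b in BAT against eWAT, and Cd3e and Cd8a in BAT against iWAT. Depth is unknown, so what counting error adds at these low levels could not be given.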
